A study of Mus musculus with 18 samples.

Results

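The H2 genes are the major histocompatibility complex (MHC) genes of the mouse, and their chromatin accessibility was measured here by ATAC-seq, which cuts and tags open DNA with the transposase Tn5. A member was any gene whose symbol in the deposited peak annotation begins with H2-. The rule gave 35 of 20325 genes and 89 of 61224 peaks of 500 bp, all on chromosome 17 between positions 33978798 and 37271193 of mm10, as deposited. By symbol, 22 members belong to class I (2 classical and 20 nonclassical) and 12 to class II (5 classical and 7 accessory or related). H2-Ke6, which encodes the steroid dehydrogenase Hsd17b8, belongs to neither and only shares the prefix. The 89 peaks divide into 45 of class I genes, 41 of class II genes and 3 of H2-Ke6. Their deposited classes were 42 promoter, 29 flanking, 9 exonic, 8 intronic and 1 in a 3' UTR, so 47.2% were promoter peaks, against 32.2% of the other peaks of the chromosome.

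The lymphoma samples were 9 murine peripheral T-cell lymphomas (mPTCL), labelled p53KO, sorted from the liver with no sort markers in the labels. They arose in CD3KO recipients that had been given p53KO T cells; such hosts lack T cells of their own and keep B cells, NK cells and myeloid cells. The 3 normal groups were wild type, with 3 libraries each. NK cells were CD27- CD11b+ spleen cells, NKT cells came from the liver and carried CD3 and bound a CD1d tetramer loaded with alpha-galactosylceramide, and T cells were CD3+ Thy1+ spleen cells. All libraries came from C57BL/6 mice and from 10000 sorted cells each. The titles of the NKT libraries carry the abbreviation Sp, although their sort is labelled as liver. Genotype, sort gate and, against NK and T cells, tissue differ together between lymphoma and normal cells and cannot be told apart. The lymphoma numbers follow accession order and mean nothing more. Whether the libraries of a normal group come from different mice is not in the labels, and the p-values below therefore reflect the scatter of these libraries alone, part of which may be technical.

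MHC class I molecules are made of a heavy chain, encoded by an H2 gene, and beta-2 microglobulin, and they show peptides from inside the cell to CD8+ T cells. Class II molecules pair an alpha with a beta chain, show peptides taken up from outside to CD4+ T cells, and are typical of B cells, dendritic cells and macrophages. NK cells read class I through inhibitory receptors, and mouse T cells, unlike human ones, make little class II even when activated. Nlrc5 is the transactivator of class I genes and Ciita that of class II genes; both act through a promoter module of W/S, X and Y boxes.

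The promoters of the genes the results turn on are shown because each overlaps a peak deposited as a promoter peak of its gene. They are RefSeq sequences of the GRCm38.p6 build (250 bases before to 50 after a start), available for 22 of the 35 members, and are given 5' to 3' on the gene's strand. Capitals mark 5 motifs searched on both strands: the Y box core TGATTGG, the kappaB motif GGGATTCCC, the interferon-response motif GAANNGAAA, the cyclic-AMP response letters TGACG and the X box core TNGCAAC. H2-Q10 and H2-Eb2 were added after their values were seen.
H2-K1, chr17:34000298-34000597, minus strand: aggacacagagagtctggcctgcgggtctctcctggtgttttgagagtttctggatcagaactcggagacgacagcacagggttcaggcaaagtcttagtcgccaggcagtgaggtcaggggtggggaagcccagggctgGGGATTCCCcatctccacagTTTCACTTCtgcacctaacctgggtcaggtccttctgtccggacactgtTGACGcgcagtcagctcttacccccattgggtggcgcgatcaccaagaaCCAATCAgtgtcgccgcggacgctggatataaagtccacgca
H2-D1, chr17:35262844-35263143, plus strand: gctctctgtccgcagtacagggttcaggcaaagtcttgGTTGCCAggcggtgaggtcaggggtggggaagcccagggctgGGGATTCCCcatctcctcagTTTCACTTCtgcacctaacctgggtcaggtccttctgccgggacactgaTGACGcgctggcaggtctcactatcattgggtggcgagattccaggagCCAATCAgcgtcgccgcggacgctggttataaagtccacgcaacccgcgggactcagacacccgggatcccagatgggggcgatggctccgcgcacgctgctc
H2-Q10, chr17:35469839-35470138, plus strand: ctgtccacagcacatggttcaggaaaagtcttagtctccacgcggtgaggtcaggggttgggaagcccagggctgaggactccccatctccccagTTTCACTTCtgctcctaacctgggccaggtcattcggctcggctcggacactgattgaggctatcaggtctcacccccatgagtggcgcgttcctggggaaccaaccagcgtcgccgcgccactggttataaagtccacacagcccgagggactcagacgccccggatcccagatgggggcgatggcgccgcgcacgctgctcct
H2-M3, chr17:37269984-37270283, plus strand: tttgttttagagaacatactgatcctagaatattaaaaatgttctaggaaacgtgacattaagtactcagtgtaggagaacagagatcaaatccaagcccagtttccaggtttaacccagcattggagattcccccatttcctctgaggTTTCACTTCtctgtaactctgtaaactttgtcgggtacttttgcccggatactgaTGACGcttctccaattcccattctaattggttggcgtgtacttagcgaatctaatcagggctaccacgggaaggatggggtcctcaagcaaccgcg
H2-T23, chr17:36032652-36032951, minus strand: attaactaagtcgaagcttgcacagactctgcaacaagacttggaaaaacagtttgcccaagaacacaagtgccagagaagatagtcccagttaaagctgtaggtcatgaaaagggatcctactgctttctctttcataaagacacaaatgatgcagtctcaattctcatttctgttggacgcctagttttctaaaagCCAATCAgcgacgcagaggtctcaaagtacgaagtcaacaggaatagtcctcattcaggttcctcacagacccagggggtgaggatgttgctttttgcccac
H2-DMa, chr17:34122582-34122881, plus strand: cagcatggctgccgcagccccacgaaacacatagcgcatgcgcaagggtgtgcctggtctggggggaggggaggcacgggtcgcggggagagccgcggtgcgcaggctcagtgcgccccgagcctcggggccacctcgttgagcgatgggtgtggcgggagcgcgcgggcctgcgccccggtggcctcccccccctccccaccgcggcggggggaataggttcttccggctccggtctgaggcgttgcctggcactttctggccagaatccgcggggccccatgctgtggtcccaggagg
H2-Aa, chr17:34287774-34288073, minus strand: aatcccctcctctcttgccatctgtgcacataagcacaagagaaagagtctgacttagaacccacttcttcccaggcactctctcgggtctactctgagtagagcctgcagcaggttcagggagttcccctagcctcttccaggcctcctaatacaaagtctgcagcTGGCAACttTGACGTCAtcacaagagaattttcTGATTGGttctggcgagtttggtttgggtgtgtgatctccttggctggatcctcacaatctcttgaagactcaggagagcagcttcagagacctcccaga
H2-Eb1, chr17:34305617-34305916, plus strand: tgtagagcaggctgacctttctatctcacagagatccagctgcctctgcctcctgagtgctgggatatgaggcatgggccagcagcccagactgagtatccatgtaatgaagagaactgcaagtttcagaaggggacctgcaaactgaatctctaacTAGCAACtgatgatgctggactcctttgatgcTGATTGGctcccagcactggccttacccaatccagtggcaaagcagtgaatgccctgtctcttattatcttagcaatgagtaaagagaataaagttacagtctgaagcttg
H2-Eb2, chr17:34325425-34325724, plus strand: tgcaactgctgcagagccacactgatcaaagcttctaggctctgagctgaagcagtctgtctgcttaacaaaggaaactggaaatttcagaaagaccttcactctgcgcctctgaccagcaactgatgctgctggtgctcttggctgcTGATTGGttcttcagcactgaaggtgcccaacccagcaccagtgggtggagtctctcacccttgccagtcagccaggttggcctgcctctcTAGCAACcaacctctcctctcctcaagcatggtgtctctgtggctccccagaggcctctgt

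The H2-K1 and H2-D1 promoters were identical at 176 of 240 bases in an ungapped alignment (73.3%), and both held the kappaB motif, the interferon-response motif, the cyclic-AMP letters and the Y box in the same order. The kappaB letters occurred in 4 of the 22 members with a sequence, against 0.353% of all 32851 RefSeq promoters, and the Y box core in 15 of 22, against 7.82%. The interferon-response letters were in 7 of 22 (7.52% of all promoters), the cyclic-AMP letters in 7 of 22 (20.8%) and the X box core in 5 of 22 (10.4%). In H2-Aa the cyclic-AMP letters matched on both strands, with overlapping letters, between the X and the Y box. H2-M3 and H2-Q10 held the interferon-response letters without the Y box core or the kappaB letters. H2-Ab1 is named only. The H2-DMa sequence held no motif and overlaps a peak also given to Brd2, not the promoter peaks given to H2-DMa alone. Class I genes are close copies of each other, and how reads that fit several copies were handled is not given in the sources used here, so the split of counts among them is uncertain.

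Lymphoma libraries held 670358 to 4844441 counts in peaks, against 417107 to 596601 in NK, 1433904 to 9097014 in NKT and 979441 to 2358023 in T libraries. The NK libraries were the shallowest: their median count per H2 peak was 2 to 5, against 11 to 77 in NKT libraries, and 15.7% to 32.6% of H2 peaks had no count in an NK library. Chromosome 17 took 4.90% to 8.01% of the counts in lymphomas, against 5.18% to 5.55% in NK, 5.15% to 5.27% in NKT and 5.43% to 5.63% in T libraries, and 8 of the 9 lymphomas lay above every normal library. Where scaling on chromosome 17 alone ended a call named below, its value is given; that scaling moved the median change over all genes, mPTCL against NKT, to -0.27 on the log2 scale, against 0.06. NK replicate 1 stood apart at class II genes (below), and NK results that move without it are given both ways. In libraries of many cells, fewer open cells and less accessibility per cell cannot be told apart.

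Few H2 genes passed the test against T cells, and most calls came from the comparisons with NKT and NK cells. With edgeR's quasi-likelihood test and Benjamini-Hochberg adjustment over all 20325 genes, 7 H2 genes were higher and 4 lower in mPTCL than in NKT cells, where 25.5% of all genes were higher and 20.2% lower. Against T cells 3 were higher and 1 lower (16.2% and 14.7% of all genes), and against NK cells 7 were higher and 2 lower (11.2% and 10.3%). Between normal cells, NK differed from NKT at 3 higher and 6 lower members (8.52% and 6.31% of all genes) and from T at 0 higher and 2 lower (3.3% and 2.2%). No member was called between NKT and T cells with edgeR (2.32% of all genes higher, 2.23% lower), where 6 of 35 had an unadjusted p below 0.05 and DESeq2 called 2, both lower.

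By class, mPTCL against NKT gave 3 higher and 4 lower of 22 class I genes (median log2 fold change -0.27) and 4 higher and 0 lower of 12 class II genes (median 0.58). The other 1110 genes of chromosome 17 had 403 higher and 44 lower (36.3% and 3.96%, median 0.41), and the 171 of them that lie between the outermost H2 peaks had 51 and 3 (median 0.32). Against T cells class I had 2 higher and 1 lower and class II 1 and 0, beside 221 and 52 of the 1110 others. The 171 genes between the outermost H2 peaks had 24 and 2. Against NK cells class I had 7 and 1 and class II 0 and 1, beside 216 and 33 of the 1110 others. The 171 genes had 54 and 0 there, so the share higher was 31.6%, close to the 31.8% of class I. Scaled on chromosome 17 alone, for mPTCL against NKT, 2 class I genes were higher and 8 lower, 4 class II genes were higher and 0 lower, and 275 and 180 other genes of the chromosome were higher and lower. The same scaling gave class I 1 higher and 3 lower and class II 1 and 1 against T cells, beside 127 and 108 others, and class I 2 and 1 and class II 0 and 2 against NK cells, beside 84 and 97 others. RLE size factors gave 9 higher and 1 lower over all H2 genes, and scaling by library totals 8 and 1.

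**Figure D1:**
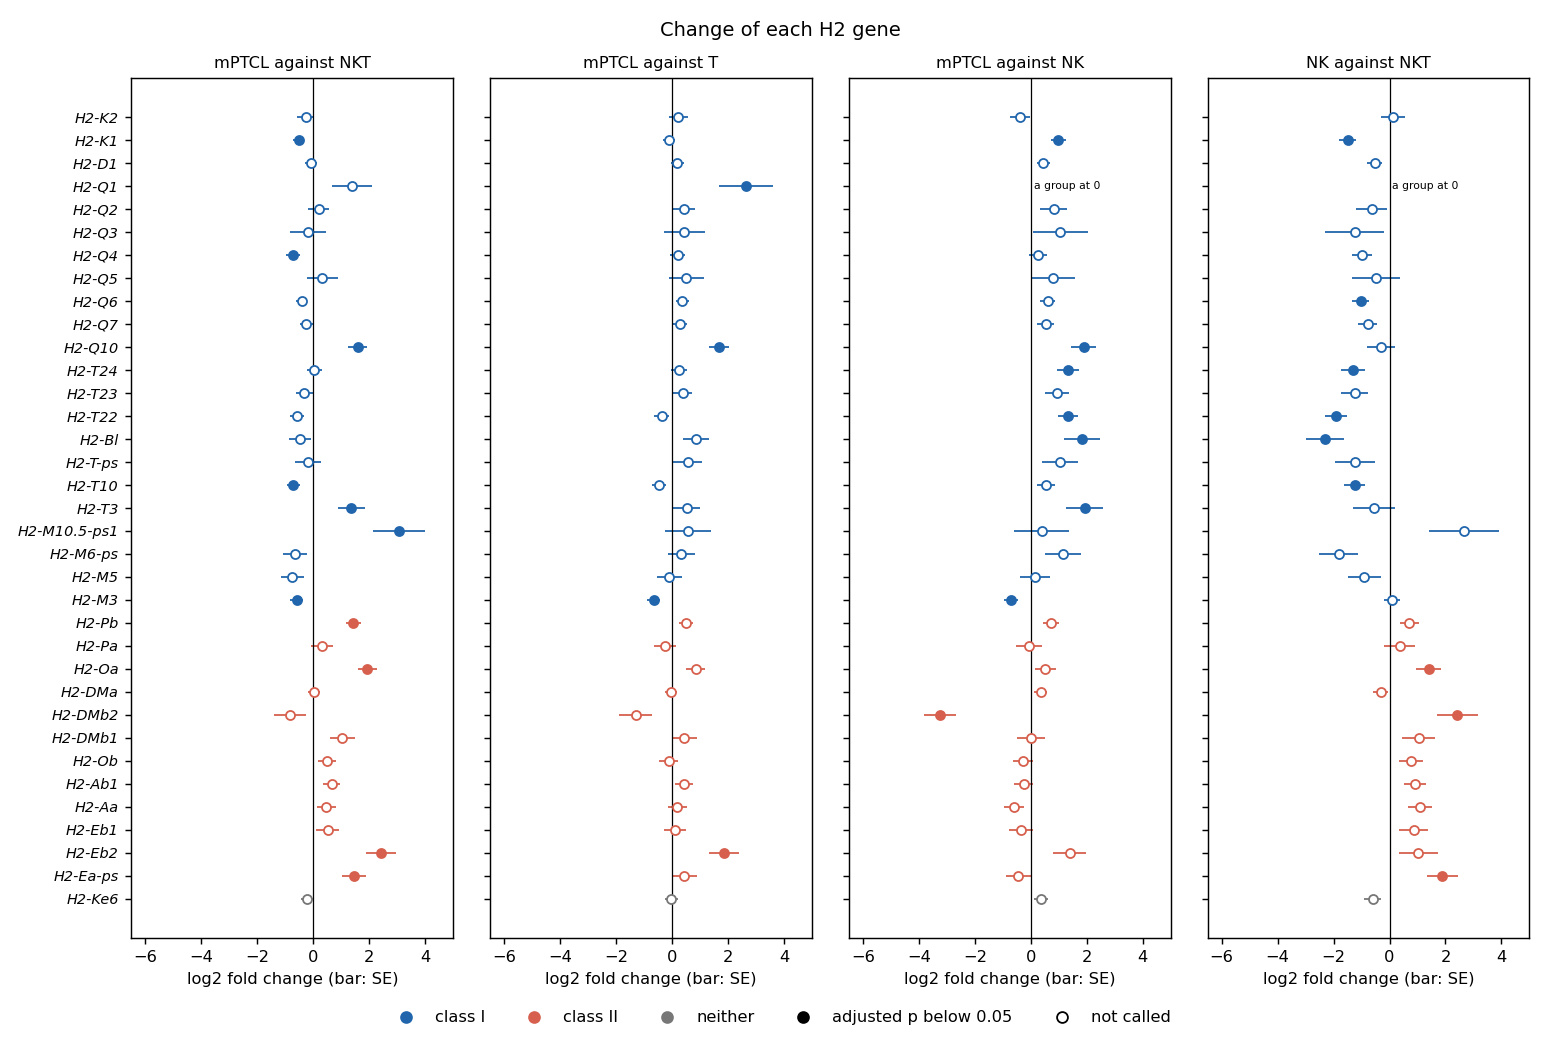
Log2 fold change (horizontal axis, bars are SE) of each of the 35 H2 genes, in order along the chromosome within class I (blue), class II (red) and neither (grey), for 4 comparisons; filled points had an adjusted p below 0.05, and a gene with no count in NK cells has no point there. Class II genes called in mPTCL against NKT lie to the right of 0, and class I genes called in NK against NKT to the left.

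The mean log2 CPM over the 22 class I genes was 4.53 ± 0.31 in lymphomas (SD, n = 9), against 3.46 ± 0.48 in NK, 4.58 ± 0.16 in NKT and 4.21 ± 0.17 in T cells (n = 3 each). Over the 12 class II genes it was 5.03 ± 0.42 in lymphomas, 4.77 ± 1.18 in NK, 4.27 ± 0.24 in NKT and 4.86 ± 0.04 in T cells. The other genes of chromosome 17 averaged 5.13 ± 0.23 in lymphomas, against 4.50 ± 0.13 in NK, 4.54 ± 0.12 in NKT and 4.73 ± 0.05 in T cells. Set against those other genes, class I stood at -0.60 ± 0.18 in lymphomas, -1.04 ± 0.45 in NK, 0.04 ± 0.05 in NKT and -0.52 ± 0.11 in T cells. Class II stood at -0.09 ± 0.20 in lymphomas, 0.27 ± 1.18 in NK, -0.26 ± 0.14 in NKT and 0.13 ± 0.07 in T cells. These means are descriptions without a test.

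**Figure D2:**
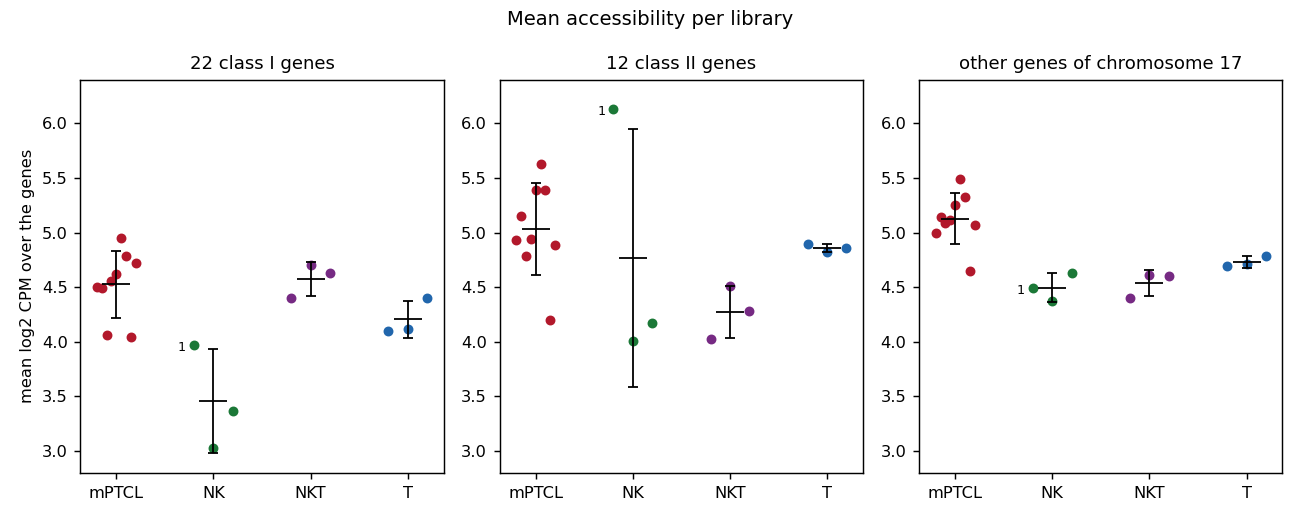
Mean log2 CPM per library over the class I genes, the class II genes and the other genes of chromosome 17, with group mean and SD in black; "1" marks NK replicate 1. NK replicate 1 reaches 6.13 at class II, against 4.01 and 4.17 in the other NK libraries.

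The classical class I heavy chains H2-K1 and H2-D1 present peptide to CD8+ T cells. H2-K1 had 65.5, 91.7 and 119 CPM as lowest, median and highest lymphoma value, against 84.2, 23.7 and 38.0 in NK, 168, 125 and 121 in NKT and 105, 89.1 and 116 in T libraries. Every lymphoma lay below every NKT library, and the lymphomas overlapped the T libraries. H2-K1 fell by 0.53 on the log2 scale against NKT cells (SE 0.21, edgeR adjusted p = 0.0435), a call that 12 of 23 alternative settings did not make, among them the removal of any 1 NKT library. It was higher than in NK cells by 0.98 (SE 0.27, adjusted p = 0.0121), or 0.61 with an adjusted p of 0.0931 when scaled on chromosome 17 and 1.60 (adjusted p = 0.000554) without NK replicate 1; the call was also lost without NK replicate 2 or 3. H2-D1 had 77.1, 156 and 189 CPM as lowest, median and highest lymphoma value, against 144, 92.8 and 85.5 in NK, 147, 171 and 144 in NKT and 137, 117 and 131 in T libraries. The lymphomas spanned most of the normal values at H2-D1, and no comparison of it was called.

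Each of these genes has a promoter peak over the sequence given above. The H2-K1 promoter peak at chr17:34000035-34000535 had 27.4, 63.0 and 72.8 CPM as lowest, median and highest lymphoma value, against 62.2, 21.1 and 25.4 in NK, 157, 109 and 105 in NKT and 79.9, 64.0 and 96.7 in T libraries. The lymphomas were below all NKT libraries there by 1.14 on the log2 scale (SE 0.25, adjusted p = 0.000754), and NK cells were lower than NKT cells by a log2 fold change of -1.78 (SE 0.37, adjusted p = 0.0017). The H2-D1 promoter peak at chr17:35262678-35263178 had 21.7, 61.9 and 75.0 CPM as lowest, median and highest lymphoma value, against 72.6, 35.8 and 25.4 in NK, 75.1, 101 and 93.6 in NKT and 72.4, 64.0 and 71.5 in T libraries. Its one call was NK against NKT, at a log2 fold change of -1.04 (SE 0.36, adjusted p = 0.0415).

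**Figure D3:**
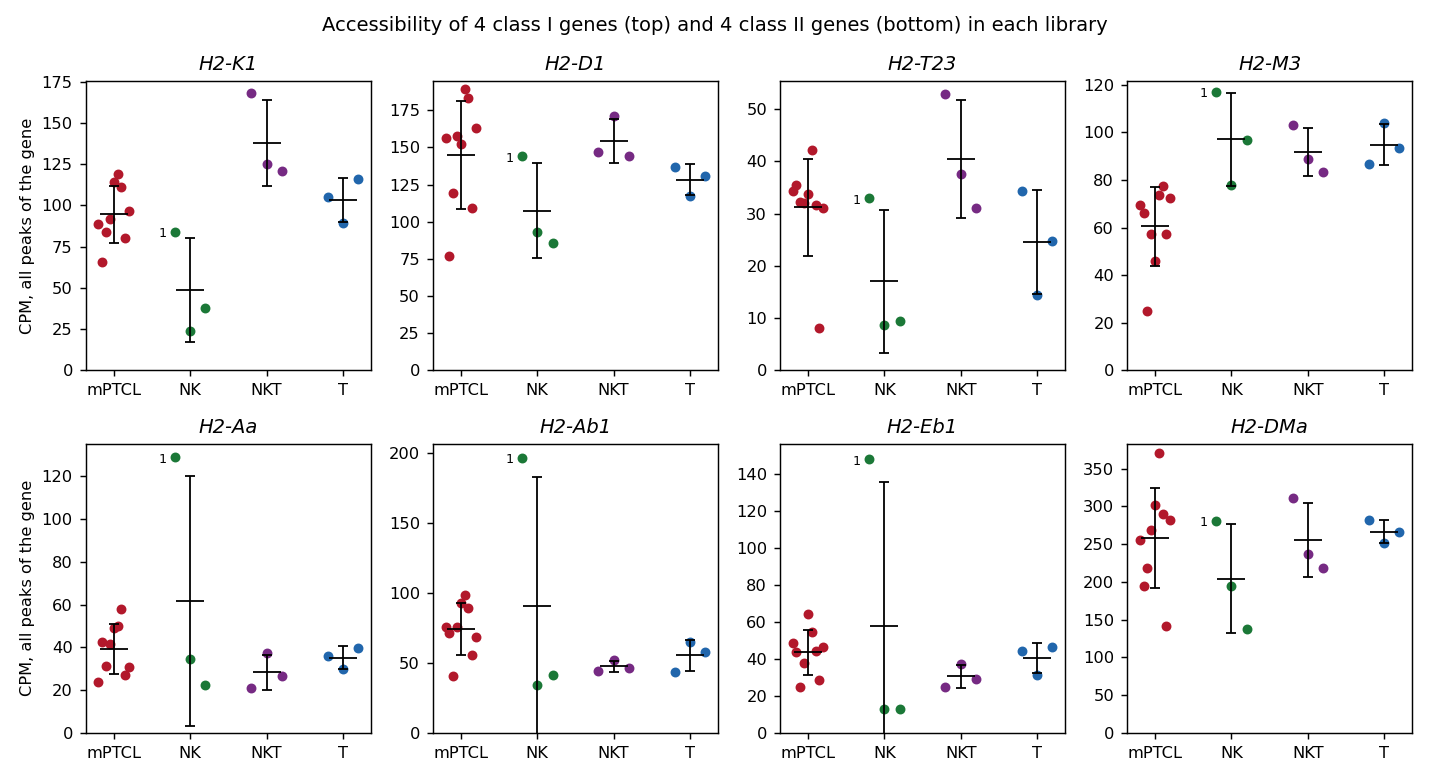
CPM per library, summed over all peaks of a gene, for 4 class I genes (top) and 4 class II genes (bottom), with group mean and SD in black; "1" marks NK replicate 1. H2-M3 is at or below 77.6 CPM in all lymphomas and at or above 77.7 in all normal libraries, and NK replicate 1 is the highest library at H2-Aa, H2-Ab1 and H2-Eb1.

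H2-M3, a nonclassical class I molecule that presents formylated peptides, was lower in mPTCL than in all 3 normal groups. It had 25.0, 66.2 and 77.6 CPM as lowest, median and highest lymphoma value, against 117, 77.7 and 96.6 in NK, 103, 88.8 and 83.3 in NKT and 86.9, 104 and 93.3 in T libraries. No lymphoma reached the lowest normal library, although the highest nearly equalled NK replicate 2. The log2 fold change was -0.60 against NKT (SE 0.22, adjusted p = 0.0311), -0.65 against T (SE 0.23, adjusted p = 0.0325) and -0.69 against NK cells (SE 0.25, adjusted p = 0.0486). Scaled on chromosome 17 alone it was -0.93, -0.92 and -1.05, with adjusted p-values of 0.00179, 0.00437 and 0.00322. Of 23 alternative settings, 12 kept the call against NKT, 17 that against T and 13 that against NK. RLE, library totals, cyclic loess with limma and DESeq2 were among those that ended the call against NKT. Leaving out any 1 library of the normal group in a comparison took the call away, and the 3 comparisons share the lymphomas. Both H2-M3 peaks were lower against NKT and T: the promoter peak at chr17:37270078-37270578 by -0.76 (adjusted p = 0.026) and -1.07 (adjusted p = 0.00667), and the exonic peak at chr17:37270693-37271193 by -0.99 (adjusted p = 0.00271) and -0.76 (adjusted p = 0.0376).

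H2-Q10, a class I gene known for a secreted product of the liver, was higher in mPTCL than in all 3 normal groups. It had 23.1, 38.5 and 65.9 CPM as lowest, median and highest lymphoma value, against 24.6, 4.32 and 6.33 in NK, 15.2, 12.2 and 15.7 in NKT and 9.05, 15.9 and 14.3 in T libraries. Only NK replicate 1 reached the lymphomas. The log2 fold change was 1.58 against NKT (SE 0.34, adjusted p = 0.000786), 1.68 against T (SE 0.37, adjusted p = 0.00134) and 1.89 against NK cells (SE 0.45, adjusted p = 0.00349), and all 22 alternative settings kept each call. Scaled on chromosome 17 alone it was 1.23, 1.41 and 1.52, and against NK cells without NK replicate 1 it was 2.96. Its promoter peak at chr17:35468795-35469295, upstream of the sequence given above, rose by 2.16 against NKT, 2.06 against T and 2.88 against NK on the log2 scale (adjusted p = 0.00202, 0.0104 and 0.0131). The promoter peak at chr17:35469991-35470491, which overlaps that sequence, was not called, at 0.17, 1.12 and 0.32 (adjusted p = 0.822, 0.251 and 0.838). Its flanking peak at chr17:35468211-35468711 had 0 counts in all NK libraries and was at least 4.87-fold higher in mPTCL (floor of 3 counts in all NK libraries together). Of 6 hepatocyte markers, 1 was measured: G6pc, at 13.6 to 68.4 CPM in lymphomas, 8.21 to 47.5 in NK, 2.64 to 5.82 in NKT and 2.72 to 7.15 in T libraries. Its part in the result was not tested.

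Other nonclassical class I genes went both ways. H2-Q4 had 35.3, 48.8 and 52.9 CPM as lowest, median and highest lymphoma value, against 78.0, 25.9 and 15.8 in NK, 87.9, 80.2 and 66.9 in NKT and 42.6, 26.8 and 51.9 in T libraries. All lymphomas lay below all NKT libraries, at a log2 fold change of -0.73 (SE 0.25, adjusted p = 0.0179), a call lost in 5 of 23 alternative settings, among them the removal of NKT replicate 1 or 2. H2-T10, whose product is a ligand of some gamma-delta T cells, fell by 0.71 (SE 0.24, adjusted p = 0.0192), at 13.6, 39.6 and 55.9 CPM as lowest, median and highest lymphoma value against 79.3, 58.8 and 55.6 CPM in NKT libraries, which overlap at one end; this call was lost in 6 of 22 settings, among them RLE, library totals and the removal of NKT replicate 1. H2-T3, the thymus leukemia antigen that binds CD8 alpha homodimers, was higher than in NKT cells by 1.36 (SE 0.47, adjusted p = 0.0205) and than in NK cells by 1.92 (SE 0.66, adjusted p = 0.0377), at 4.86, 17.2 and 20.7 CPM as lowest, median and highest lymphoma value against 0, 6.47 and 4.75 in NK and 3.96, 5.70 and 6.54 in NKT libraries. Neither H2-T3 call held when scaled on chromosome 17 (1.0 against NKT, adjusted p = 0.0709, and 1.52 against NK, adjusted p = 0.0935), and each was lost without any 1 library of its normal group.

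H2-T23 encodes Qa-1, which presents class I leader peptides to the NK receptor CD94/NKG2A. It had 8.16, 32.3 and 42.1 CPM as lowest, median and highest lymphoma value, against 32.9, 8.63 and 9.50 in NK, 52.9, 37.5 and 31.0 in NKT and 34.4, 14.5 and 24.8 in T libraries. No comparison of the gene was called over all libraries. Without NK replicate 1 it was lower in NK than in NKT cells by -2.12 (adjusted p = 0.0109) and higher in mPTCL than in NK cells by 1.80 (adjusted p = 0.0161). Of the other class I members, H2-K2, H2-M5, H2-M6-ps, H2-Q2, H2-Q3, H2-Q5, H2-Q7 and H2-T-ps were called in no comparison over all libraries. H2-T22 and H2-T24 were also higher in mPTCL than in NK cells, by 1.32 (SE 0.36, adjusted p = 0.00962) and 1.33 (SE 0.38, adjusted p = 0.0134). So was H2-Bl, by 1.83 (SE 0.63, adjusted p = 0.0388), on 6 counts over all NK libraries. Its value without NK replicate 1 was 2.89, with NK replicates 2 and 3 at 0 and 3.17 CPM, so its size is uncertain. The calls of H2-T24 and H2-Bl were lost without NK replicate 2 or 3 and under scaling on chromosome 17, at 0.93 (adjusted p = 0.0532) and 1.46 (adjusted p = 0.0978), and that of H2-T22 without NK replicate 3. H2-Q6, a Qa-2 gene, was lower in NK than in NKT cells by -1.03 (SE 0.31, adjusted p = 0.0243), a call made in 10 of 19 alternative settings. Low genes carried the widest values: H2-Q1 had 142 counts over the lymphomas and 0 over the NK libraries, at least 2.88-fold higher by the same floor (adjusted p = 0.0388, not called without any 1 NK library, nor when scaled on chromosome 17, with an adjusted p of 0.0569), and H2-M10.5-ps1 was higher than in NKT cells by 3.06 (SE 0.92, adjusted p = 0.00939) on 131 against 11 counts, a call lost without NKT replicate 3. H2-Q1 against T cells, at 2.63 (SE 0.97, adjusted p = 0.0411), rested on 142 against 4 counts and was called in 9 of 20 alternative settings; scaled on chromosome 17 it was 2.35 (adjusted p = 0.0669).

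NK cells were lower than NKT cells at several class I genes. Of the 22 class I genes, 6 were lower and 0 higher in NK than in NKT cells (median -1.01, or -0.95 with H2-Q1, at 0 in NK cells, put at its bound), against 63 lower and 115 higher of the 1110 other genes of chromosome 17 (5.68% and 10.4%, median 0.00) and 21 lower and 6 higher of the 171 genes between the outermost H2 peaks (median -0.49). H2-K1 was lower by a log2 fold change of -1.50 (SE 0.31, adjusted p = 0.00198) and H2-T22, another gamma-delta T-cell ligand, by -1.90 (SE 0.39, adjusted p = 0.002). These calls held in all 19 alternative settings for H2-K1 and all 18 for H2-T22. H2-T22 had 24.6, 17.3 and 6.33 CPM in NK, against 60.8, 59.2 and 54.8 in NKT and 59.8, 49.2 and 42.9 in T libraries, with no overlap. H2-Bl was lower by -2.32 (SE 0.68, adjusted p = 0.0222), at 8.21, 0 and 3.17 CPM in NK against 19.8, 16.2 and 21.4 in NKT libraries. This call rested on 6 counts over all NK libraries and was made in 14 of 18 alternative settings. It was lost without NKT replicate 3, without NK replicate 2 or 3 and in the smaller peak table.

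NK against T cells gave the same direction for the 2 genes called, H2-K1 at -1.10 (SE 0.31, adjusted p = 0.0382) and H2-T22 at -1.69 (SE 0.40, adjusted p = 0.0129); these comparisons share the NK libraries. H2-K1 was called against T in 8 of 19 alternative settings and H2-T22 in 16 of 18. Scaled on chromosome 17 alone, H2-K1 stood at -1.01 against T cells and was not called. Without NK replicate 1, 10 class I genes were lower and 0 higher in NK than in NKT cells. Of the other genes of chromosome 17, 84 were lower and 120 higher, and of all genes 8.99% and 9.19%. H2-K1 then stood at -2.12 (adjusted p = 0.00015) and H2-T22 at -2.37 (adjusted p = 0.00142) against NKT cells. The differences of H2-K1 and H2-T22 from NKT cells were larger without that library. The share of all genes lower in NK than in NKT cells was larger too, at 8.99% against 6.31%.

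Of the 14 class I peaks lower in NK than in NKT cells, 12 were promoter peaks. NK cells had 12 of 19 class I promoter peaks lower than NKT cells and 0 higher, against 195 of 1227 lower (15.9%) among the other promoter peaks of chromosome 17 and 15.5% of all promoter peaks. Of 26 other class I peaks, 2 were lower. The class I promoter peaks held more counts, with a median mean count of 70.9, against 22.9 at the other class I peaks. It was 43.3 at the other promoter peaks of the chromosome. The median log2 fold change was -1.56 at class I promoter peaks and -0.98 at the other class I peaks, so the counts of calls are not a like comparison. Without NK replicate 1, 13 of 19 class I promoter peaks were lower, and with cyclic-loess values and limma, 6 of 19. Over all H2 peaks, 3 were higher and 16 lower in NK than in NKT cells (6.81% and 10.3% of all peaks). Against T cells 0 were higher and 2 lower (2.02% and 2.77%), the promoter peaks of H2-T22 at chr17:36042637-36043137 and of H2-T10 at chr17:36121344-36121844, by -1.96 (adjusted p = 0.00504) and -1.29 (adjusted p = 0.0415); both are also given to a second gene. Without NK replicate 1, 2 H2 peaks were higher and 19 lower against NKT, and 0 and 7 against T cells.

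In mPTCL against NKT, 9 of 19 class I promoter peaks were lower and 1 higher, against 132 lower and 194 higher of the 1227 other promoter peaks of the chromosome and 30.3% lower and 12.3% higher of all promoter peaks. Scaled on chromosome 17 alone the count was 14 of 19 lower, against 27.5% of the other promoter peaks of the chromosome. With cyclic-loess values and limma, which change both the scaling and the test, it was 0 of 19. Over all 89 H2 peaks, 13 were higher and 14 lower (23.2% and 19.4% of all peaks). Against T cells 2 were higher and 3 lower (8.27% and 11.4%), and against NK cells 9 were higher and 2 lower (6.03% and 3.76%), or 19 and 0 without NK replicate 1. The lower peak against T cells outside H2-M3 was the H2-Ob promoter peak at chr17:34239415-34239915, at -1.47 (adjusted p = 0.0359). NKT and T cells differed at 2 higher and 0 lower H2 peaks (3.48% and 1.75%), the promoter peaks of H2-Q6 at chr17:35424687-35425187 (1.56, adjusted p = 0.0239) and H2-M6-ps at chr17:36971501-36972001 (2.8, adjusted p = 0.00948).

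**Figure D4:**
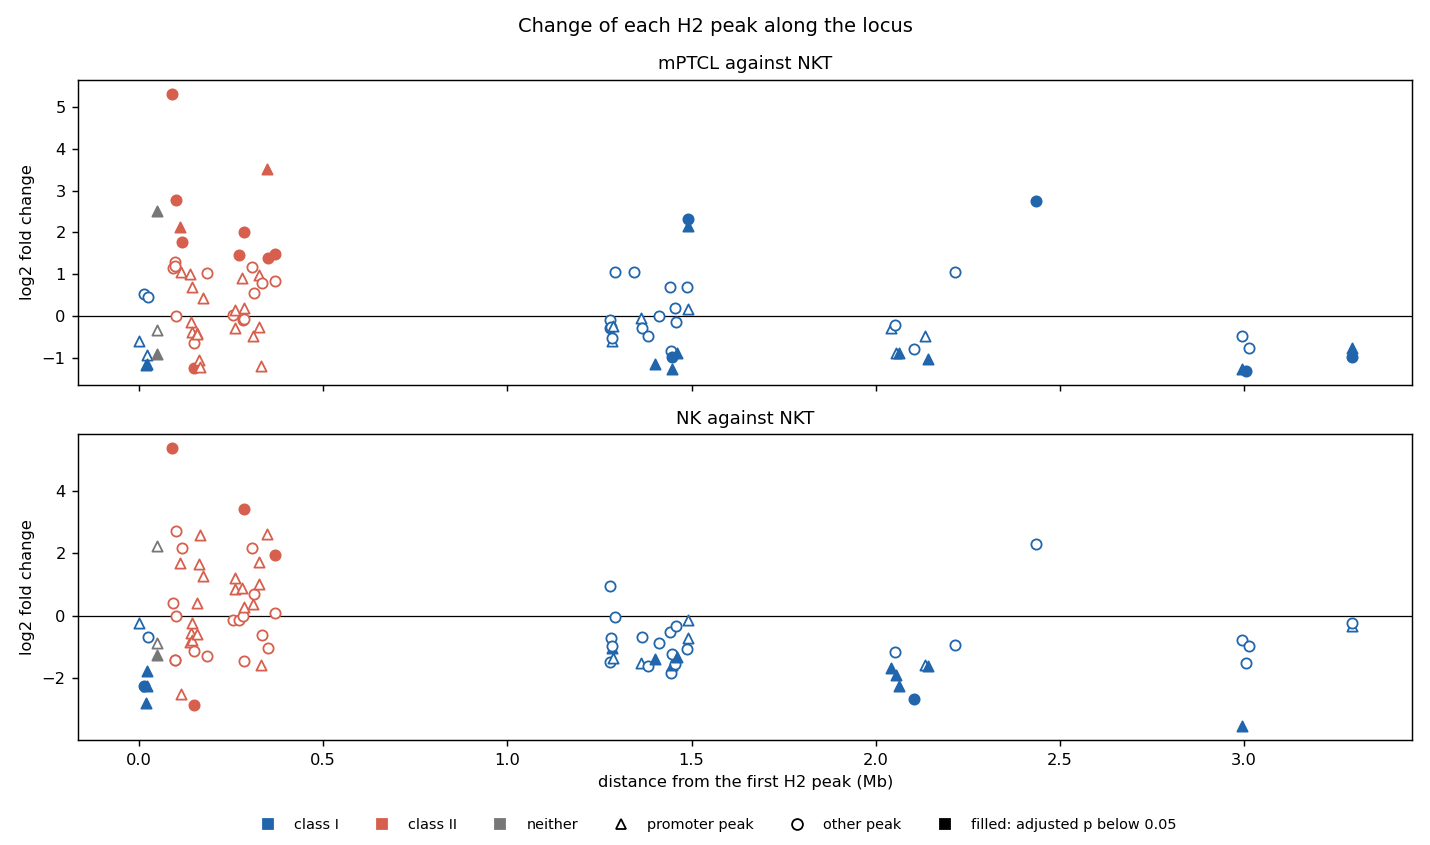
Log2 fold change of each H2 peak (vertical axis) by its distance in Mb from the first H2 peak, for mPTCL against NKT (top) and NK against NKT (bottom); triangles are promoter peaks, circles other peaks, filled symbols had an adjusted p below 0.05, and 2 peaks with no count in NK cells are not drawn below. Called class I peaks (blue) lie below 0 in the lower panel, and called class II peaks (red) mostly above 0 in the upper panel.

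The class II genes called against NKT cells, H2-Eb2, H2-Oa, H2-Pb and H2-Ea-ps, were higher in mPTCL; these 4 of 12 (33.3%) stand beside 36.3% of the other genes of chromosome 17 and 25.5% of all genes. H2-Eb2 encodes a second beta chain of the I-E type. It had 13.6, 51.9 and 83.1 CPM as lowest, median and highest lymphoma value, against 55.4, 0 and 3.17 in NK, 11.2, 9.66 and 7.68 in NKT and 17.2, 11.6 and 13.2 in T libraries. The lymphomas exceeded all NKT libraries and overlapped the T libraries at their lowest value. The log2 fold change was 2.42 against NKT (SE 0.53, adjusted p = 0.000752) and 1.85 against T (SE 0.53, adjusted p = 0.0104). The call against T was lost without T replicate 2 or 3, and both calls were lost with cyclic loess and limma. Against NK cells H2-Eb2 was not called over all libraries, where NK cells held 29 counts. Without NK replicate 1, the high one, the value was 4.75 (adjusted p = 0.000395). NK replicates 2 and 3, at 0 and 3.17 CPM, leave so few counts that its size is uncertain. The H2-Eb2 promoter peak at chr17:34325245-34325745 rose by 3.51 against NKT (SE 0.79, adjusted p = 0.000988) and 2.47 against T (SE 0.75, adjusted p = 0.0192).

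H2-Oa and H2-Ob form H2-O, which restrains the peptide loader H2-DM. H2-Oa had 12.1, 22.8 and 31.5 CPM as lowest, median and highest lymphoma value, against 20.5, 21.6 and 7.92 in NK, 5.29, 6.05 and 6.75 in NKT and 11.8, 13.8 and 13.2 in T libraries. It was higher than in NKT cells by 1.93 (SE 0.35, adjusted p = 0.000136), with no overlap; in the smaller deposited peak table, where 1 other peak carries its name, the value was -0.01 and not called. H2-Pb had 36.7, 53.9 and 79.8 CPM as lowest, median and highest lymphoma value, against 37, 30.2 and 34.8 in NK, 13.2, 26.5 and 21.0 in NKT and 43.5, 41.3 and 36.1 in T libraries. H2-Pb was higher than in NKT cells by 1.43 (SE 0.26, adjusted p = 0.000126) and H2-Ea-ps, the alpha chain gene of I-E that is a pseudogene in C57BL/6 mice, by 1.45 (SE 0.44, adjusted p = 0.0102), the H2-Ea-ps call lost without NKT replicate 1. H2-Ob, H2-Pa and H2-DMb1 were called in no comparison over all libraries, nor was H2-Ke6. A flanking peak given to H2-Pb and Col11a2, at chr17:34068919-34069419, held 163 counts over the lymphomas and 2 over the NKT libraries, a ratio of 49.0 (95% exact binomial interval 13.3 to 408, counting error only). Another flanking H2-Pb peak, at chr17:34078228-34078728, was higher by 2.78 (SE 0.88, adjusted p = 0.0125).

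The main chain genes of I-A and I-E, H2-Aa, H2-Ab1 and H2-Eb1, were not called in any comparison of lymphoma and normal cells over all libraries. H2-Aa, the I-A alpha chain, had 23.7, 41.8 and 58.1 CPM as lowest, median and highest lymphoma value, against 129, 34.5 and 22.2 in NK, 21.1, 37.2 and 26.7 in NKT and 36.2, 29.7 and 39.9 in T libraries. H2-Ab1, the I-A beta chain, had 40.6, 75.8 and 98.6 CPM as lowest, median and highest lymphoma value, against 197, 34.5 and 41.2 in NK, 44.3, 52.2 and 46.1 in NKT and 43.5, 65.2 and 57.6 in T libraries. H2-Eb1, the I-E beta chain, had 25.0, 44.3 and 64.1 CPM as lowest, median and highest lymphoma value, against 148, 12.9 and 12.7 in NK, 25.1, 37.5 and 29.2 in NKT and 44.4, 31.1 and 46.3 in T libraries. NK replicate 1 exceeded every other library at all 3 genes. Among their peaks, the intronic H2-Ab1 peak at chr17:34263815-34264315 was higher in NK than in NKT cells by 3.43 (adjusted p = 0.0059), at 49.8, 4.22 and 9.52 CPM in the NK libraries. H2-DMa, a chain of H2-DM, which swaps the invariant-chain fragment for peptide, had 142, 269 and 371 CPM as lowest, median and highest lymphoma value, against 281, 194 and 138 in NK, 311, 237 and 218 in NKT and 282, 251 and 266 in T libraries. Its groups overlapped and no comparison was called; 4 of its 8 peaks are also given to its neighbour Brd2.

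**Figure D5:**
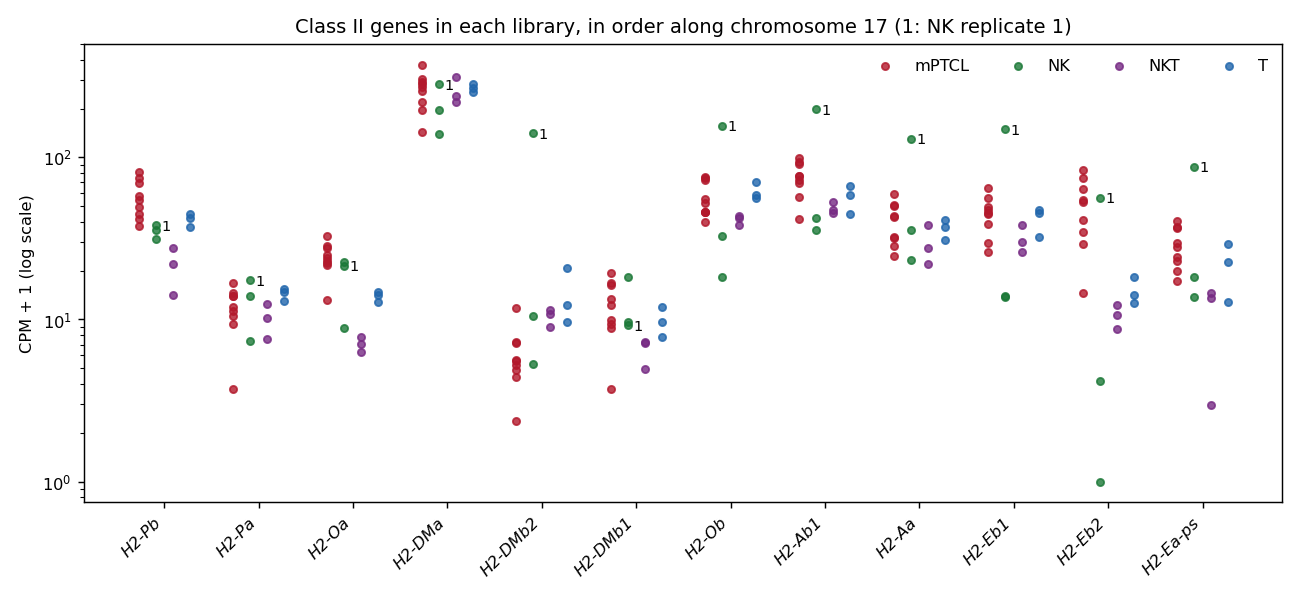
CPM + 1 on a log scale for the 12 class II genes in each library, in order along the chromosome, with lymphomas left and normal groups to the right; "1" marks NK replicate 1. At H2-DMb2 that library has 140 CPM, against 4.32 and 9.50 in the other NK libraries.

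No class II gene call of NK cells made over all libraries held without NK replicate 1. H2-DMb2, a beta chain of H2-DM, had 1.36, 4.57 and 10.8 CPM as lowest, median and highest lymphoma value, against 140, 4.32 and 9.50 in NK, 7.93, 10.4 and 9.76 in NKT and 19.9, 8.69 and 11.3 in T libraries. Over all libraries mPTCL was lower than NK there by -3.24 (SE 0.56, adjusted p = 0.000221) and NK higher than NKT by 2.42 (SE 0.73, adjusted p = 0.0267); its promoter peaks at chr17:34142809-34143309 and chr17:34144762-34145262 were lower in mPTCL than in NK cells by -2.72 and -3.81 (adjusted p = 0.00192 and 0.00212). Without NK replicate 1 the gene values were -0.42 (adjusted p = 0.703) and -0.41 (adjusted p = 0.736). The H2-DMb2 call of NK against NKT was also lost without any 1 NKT library. NK cells were also higher than NKT cells at H2-Ea-ps (1.89, adjusted p = 0.023) and H2-Oa (1.40, adjusted p = 0.0354). Neither call held without NK replicate 1 or without NKT replicate 1. H2-Oa, at 20.5, 21.6 and 7.92 CPM in NK libraries, was highest in NK replicate 2. Its call was also lost without NK replicate 2 or any 1 NKT library, and was made in 8 of 18 alternative settings. Without NK replicate 1, 9 class I and 4 class II genes (H2-Ab1, H2-Eb1, H2-Eb2 and H2-Ob) were higher in mPTCL than in NK cells and 0 lower. Of the other genes of chromosome 17, 212 were higher and 31 lower, and of all genes 11.8% and 9.89%. Of the 171 genes between the outermost H2 peaks, 53 were higher and 0 lower (31%). NK cells were then lower than T cells at H2-Eb1 by -1.67 (adjusted p = 0.026) and at H2-Ob by -1.28 (adjusted p = 0.0334). NK replicate 1 was set apart because of its high class II values. Lower class II values in NK cells without it follow in part from that choice, and their p-values are no separate support.

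Markers of cells that carry class II were measured beside these results. In NK replicates 1, 2 and 3, the 4 of 7 B-cell markers with peaks summed to 156, 121 and 90.3 CPM, and the 4 of 7 dendritic-cell markers to 177, 190 and 154 CPM. Pax5, the B-lineage transcription factor, had 78.0, 43.2 and 42.8 CPM in them, and Flt3, a receptor of dendritic-cell precursors, 59.5, 8.63 and 20.6 CPM. Ebf1 had 65.7, 64.7 and 34.8 CPM. NK replicate 1 was not the highest NK library at the other markers: Cd79b (8.21, 12.9 and 6.33) and Cd22 (4.11, 0 and 6.33) of B cells. Nor was it at Itgax (28.7, 47.5 and 34.8), Zbtb46 (84.2, 134 and 87.1) and Clec9a (4.11, 0 and 11.1) of dendritic cells. In lymphomas the B-cell sum was 90.4 to 178 CPM, against 39.0 to 40.8 in NKT and 60.8 to 70.4 in T libraries, and the dendritic-cell sum 144 to 239 CPM, against 42.3 to 59.5 in NKT and 73.3 to 105 in T libraries. The 3 of 10 myeloid markers summed to 28.8 to 64.6 CPM in lymphomas, 22.2 to 43.2 in NK, 11.2 to 18.7 in NKT and 16.7 to 18.1 in T libraries. Against NKT cells, 3 of 4 B-cell, 4 of 4 dendritic-cell and 1 of 3 myeloid markers were higher in lymphomas, beside 25.5% of all genes. Among the B-cell and dendritic-cell markers, Cd22 was at 0 in T replicate 1 and NK replicate 2, and Clec9a in NK replicate 2. The part of such cells in the class II results was not tested. Of 5 endothelial or stromal markers measured, 3 were higher in lymphomas than in NKT cells, and of 4 erythroid markers 1. Of 9 identity genes of T, NKT and NK cells, 4 were higher and 4 lower in that comparison (25.5% and 20.2% of all genes). Cd3e, a chain of the T-cell receptor complex, had 16.4 to 44.9 CPM in lymphomas, 0 to 8.21 in NK, 52.9 to 68.1 in NKT and 27.5 to 45.5 in T libraries. The NK receptor gene Ncr1 had 0 to 24.1 in lymphomas, 12.3 to 38.8 in NK, 0 to 0.934 in NKT and 0 to 5.27 in T libraries.

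The partners of class I were mixed. Of 15 genes of class I presentation, 1 was higher and 4 lower in mPTCL than in NKT cells (25.5% and 20.2% of all genes). Against T cells the counts were 1 and 1 (16.2% and 14.7%), and against NK cells 4 and 1 (11.2% and 10.3%). NK had 0 higher and 3 lower against NKT (8.52% and 6.31%) and 0 and 2 against T (3.3% and 2.2%). Between NKT and T cells 0 were called (2.32% and 2.23%). B2m, the light chain, had 58.7, 88.5 and 102 CPM as lowest, median and highest lymphoma value, against 168, 94.9 and 124 in NK, 180, 148 and 126 in NKT and 121, 127 and 104 in T libraries. It fell by 0.82 against NKT (SE 0.18, adjusted p = 0.000681) and by 0.60 against NK cells (SE 0.20, adjusted p = 0.0294), and stood at -0.46 against T (adjusted p = 0.0571). The value against NK without NK replicate 1 was -0.37 (adjusted p = 0.247), no longer called, and scaled on chromosome 17 the value against T was -0.72 (adjusted p = 0.00924). B2m lies on chromosome 2, outside the chromosome with the raised share. Scaling on chromosome 17 moved the median change over all genes against T from 0.12 to -0.14, so a lower value there is not particular to B2m. Tap1, the peptide transporter subunit encoded within the class II region, was lower than in NKT cells by -0.45 (SE 0.17, adjusted p = 0.0357) and higher than in NK cells by 0.97 (SE 0.23, adjusted p = 0.00349). The first call held in 12 of 22 alternative settings, and the second was lost when scaled on chromosome 17 (0.59, adjusted p = 0.0548). In NK cells Tap1 and the immunoproteasome gene Psmb9, its neighbour, were lower than in NKT cells by -1.42 (SE 0.26, adjusted p = 0.00063) and -1.37 (SE 0.26, adjusted p = 0.000846). Tap1 had 41.1, 38.8 and 30.1 CPM in NK, against 120, 84.0 and 89.7 in NKT libraries. Psmb9 had close values, 47.2, 43.2 and 30.1 in NK against 126, 89.1 and 94.6 in NKT libraries. Over peaks with a single symbol the Psmb9 call was lost. Tap1 and Psmb9, both in the list above, therefore need not be separate results.

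The transactivators did not pass the test. Nlrc5 stood at 0.11 against NKT (adjusted p = 0.713), 0.32 against T (adjusted p = 0.317) and 0.25 against NK cells (adjusted p = 0.542), and Ciita at 0.06 (adjusted p = 0.891), 0.47 (adjusted p = 0.309) and -0.20 (adjusted p = 0.737). Of 13 MHC transcription factors, 0 were higher and 5 lower against NKT (25.5% and 20.2% of all genes). The counts were 2 and 3 against T (16.2% and 14.7%) and 1 and 1 against NK (11.2% and 10.3%). Creb1, which binds the cyclic-AMP site of the promoter module, was lower against all 3, by -1.06 (adjusted p = 6.47e-05), -0.54 (adjusted p = 0.0301) and -0.73 (adjusted p = 0.00831). The Creb1 call against NKT held in all 23 alternative settings. Against T it held in 18, and was lost without T replicate 1 or 2 among others. Against NK it held in 22, and was lost without NK replicate 3. Irf2, a factor of interferon-response sites, was lower against NKT by -0.97 (adjusted p = 9.6e-05) and against T by -0.60 (adjusted p = 0.0127). Irf1, its activating relative, was higher against T by 0.65 (adjusted p = 0.0345) and against NK by 0.85 (adjusted p = 0.0198). Neither call held when scaled on chromosome 17 (0.41, adjusted p = 0.223, and 0.51, adjusted p = 0.2). That scaling lowered genes in general: the median change over all genes moved from 0.12 to -0.14 against T and from 0.13 to -0.23 against NK.

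Of 6 measured genes of class II presentation, 2 were higher and 1 lower in mPTCL than in NKT cells (25.5% and 20.2% of all genes). The counts were 1 and 2 against T (16.2% and 14.7%) and 0 and 2 against NK (11.2% and 10.3%). Cd74, the invariant chain, was lower in mPTCL than in T cells by -2.0 (SE 0.47, adjusted p = 0.0024) and than in NK cells by -2.64 (SE 0.49, adjusted p = 0.000455). It had 3.40, 7.23 and 17.7 CPM as lowest, median and highest lymphoma value, against 90.3, 23.7 and 19.0 in NK, 1.98, 15.9 and 13.0 in NKT and 43.5, 21.0 and 21.5 in T libraries. No lymphoma reached a T or NK library. The value against NK cells without NK replicate 1 was -1.58 (adjusted p = 0.0586), no longer called. The protease Ctss had 806, 591 and 404 CPM in mPTCL replicates 1, 2 and 5 and 68.0 to 99.3 in the other 6 lymphomas, against 92.4, 112 and 195 in NK, 74.0, 45.1 and 48.5 in NKT and 75.1, 68.8 and 44.0 in T libraries. The 3 lymphomas lay above every normal library and the other 6 within the range of these libraries. The log2 fold change of Ctss was 2.23 against NKT (adjusted p = 0.00755) and 2.06 against T cells (adjusted p = 0.0196), and the call against T was lost without any 1 T library. Ctsl was lower against NKT, T and NK by -0.94, -1.51 and -0.93 (adjusted p = 0.000827, 1.07e-05 and 0.00673).

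Of 8 measured class I-like genes outside the H2 names, 2 were higher and 2 lower against NKT (25.5% and 20.2% of all genes). The counts were 2 and 1 against T (16.2% and 14.7%) and 1 and 0 against NK (11.2% and 10.3%). Cd1d1, which presents lipids to NKT cells, was higher in mPTCL than in NK cells by 1.62 (SE 0.50, adjusted p = 0.021) and stood at 0.30 against NKT (adjusted p = 0.489). The call against NK was lost when scaled on chromosome 17 (1.31, adjusted p = 0.0909) and without NK replicate 2 or 3. That scaling moved the median change over all genes against NK from 0.13 to -0.23. Cd1d1 had 12.1, 19.0 and 38.1 CPM as lowest, median and highest lymphoma value, against 12.3, 4.32 and 3.17 in NK, 11.9, 19.1 and 16.5 in NKT and 19.0, 21.7 and 19.9 in T libraries. Raet1e, a stress ligand of NKG2D, was lower than in NKT cells by -2.77 (SE 0.36, adjusted p = 3.34e-06; 0.94 and not called over its promoter peaks alone), and Fcgrt, the neonatal Fc receptor, was higher by 2.40 (SE 0.45, adjusted p = 0.000174).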

How the data were processed

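The deposited files hold raw counts per peak, made by the authors; per the submitters' processing notes the tools include MACS2 2.1.2, bedtools and edgeR 3.24.3, with build mm10. The sources used here name no aligner and no rule for multiply mapped reads. The authors also deposited log2 CPM values, apparently with TMM scaling; these were not used here. Peaks were not called anew. Positions are printed as deposited, and whether starts count from 0 or 1 is not stated.

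Counts were summed over the peaks given a symbol. A second symbol is given to 20 H2 peaks, and their counts enter each gene named. Among them, 3 peaks carry more than 1 H2 symbol and join H2-Pa with H2-Pb, H2-Q4 with H2-Q5 and H2-Q6 with H2-Q7. The members of such a pair are not separate in the counts by class. All 18 libraries entered 1 fit per level of edgeR 4.0.16 (R 4.3.3; TMM, filterByExpr, quasi-likelihood F-test), with Benjamini-Hochberg adjustment and a threshold of 0.05 over 20325 genes or 61220 peaks, for 6 comparisons. CPM uses TMM library sizes; log2 CPM adds a prior count of 2. The fit was tested on simulated data. Alternatives were other scalings, limma 3.58.1, DESeq2 1.42.0, count filters, peak subsets, the smaller table of 27727 peaks and leaving out each library. Always described were H2-K1, H2-D1, H2-Aa, H2-Ab1, H2-Eb1, H2-DMa, H2-T23 and H2-M3, then the 3 called members with the largest change per direction and comparison. The members, the 4 MHC gene lists and the 7 marker lists were chosen with earlier results of these data known. Intervals and floors cover counting error only.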

Additional observations from a re-analysis of the deposited data

Results flagged for a closer look

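In 8 of the 35 H2 genes, 1 lymphoma lay far below the other 8 on the log2 CPM scale (Dixon's gap ratio above the 95% critical value for 9 samples), and chance alone flags about 1 in 20 groups. Replicate 8 was the low one at H2-T23 (3.15, next value 4.99), H2-T10 (3.84, next 5.0), H2-DMb1 (1.77, next 3.10) and H2-Pa (1.77, next 3.18). That library was the shallowest lymphoma, with 670358 counts, and had the lowest chromosome 17 share, 4.90%; its values rested on 6 counts at H2-T23, 10 at H2-T10 and 2 each at H2-DMb1 and H2-Pa. Their part in these values was not tested. Replicate 3 was the low one at H2-M3 (4.68, next 5.55), H2-Bl (2.70, next 3.56) and H2-M6-ps (1.26, next 3.80), and replicate 9 at H2-Oa (3.67, next 4.42).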

How the results depend on the processing

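The settings below are set beside 11, 4, 9, 9, 2 and 0 H2 genes and 27, 5, 11, 19, 2 and 2 H2 peaks called in mPTCL against NKT, T and NK, NK against NKT and T, and NKT against T. Leaving out 1 library gave 5 to 12, 1 to 5, 2 to 13, 3 to 10, 0 to 4 and 0 to 0 genes, and 13 to 30, 0 to 7, 3 to 19, 10 to 21, 1 to 7 and 0 to 2 peaks. For mPTCL against NKT, cyclic loess with limma gave 7 genes and 4 peaks, promoter peaks only 5 genes, the smaller peak set 6 genes and 12 peaks, and a mean count of at least 20 gave 14 peaks. For mPTCL against T, cyclic loess gave 2 genes and 3 peaks, the smaller peak set 1 gene and 1 peak, chromosome 17 scaling 11 peaks and DESeq2 10 peaks. For mPTCL against NK, chromosome 17 scaling gave 5 genes and 7 peaks, promoter peaks only 5 genes, cyclic loess 19 peaks and the smaller peak set 7 peaks. For NK against NKT, promoter peaks only gave 4 genes, the smaller peak set 5 genes and 5 peaks, cyclic loess 11 peaks, a mean count of at least 20 gave 6 peaks and the fit on these groups alone 5 peaks. For NK against T, RLE, a mean count of at least 20, the fit on these groups alone and the smaller peak set each gave 1 gene and 1 peak; chromosome 17 scaling, promoter peaks only and single-symbol peaks gave 1 gene; library totals and DESeq2 gave 1 peak, and cyclic loess 7 peaks. For NKT against T, cyclic loess gave 1 gene and 0 peaks, DESeq2 2 genes, single-symbol peaks 1 gene, the fit on these groups alone 7 genes and 12 peaks, and RLE, library totals, a mean count of at least 20 and the smaller peak set 1 peak each. Fewer features are tested with promoter peaks, single symbols, the count filter or the smaller peak set; otherwise the cause was not tested.

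Among genes called with or without the change of setting, signs turned for H2-Oa in the smaller peak set (-0.01 in mPTCL against NKT, -1.29 in NK against NKT). Without NK replicate 1 they turned for H2-Ab1 (0.98), H2-Eb1 (1.78) and H2-Ob (1.16) in mPTCL against NK. They also turned for H2-DMb2 (-0.41) in NK against NKT, and for H2-Eb1 (-1.67) and H2-Ob (-1.28) in NK against T. Uncalled genes turned as well. Of 12 class II genes, 4 had a positive change in mPTCL against NK over all libraries, and 10 without NK replicate 1. In NK against NKT the counts were 11 and 5, and in NK against T 9 and 2. Over all single-library removals the ranges were -0.64 to 0.98 for H2-Ab1, -0.87 to 1.78 for H2-Eb1 and -0.71 to 1.16 for H2-Ob in mPTCL against NK, -0.41 to 2.95 for H2-DMb2 in NK against NKT, and -1.67 to 0.99 for H2-Eb1 and -1.28 to 0.59 for H2-Ob in NK against T. Same-numbered normal libraries did not deviate together (correlations -0.04 to 0.05, 0 of 9 pairs over 0.1; 5 of 9 libraries correlated best with their own number). In normal libraries with a replicate block, 7 peaks were called in NK against NKT, 1 peak in NK against T and 1 gene in NKT against T; without the block, 12 peaks in NK against NKT and 2 genes in NKT against T. The depth of the NK libraries, with 2 to 5 counts at the median H2 peak, limits every comparison with them.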
